A study of Homo sapiens with 30 samples.

Results

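The response of LNCaP prostate cancer cells to 0.1 nM of R1881, a synthetic androgen, was measured by comparing messenger RNA from 3 libraries treated with 0.1 nM R1881 with 3 libraries treated with vehicle, all 6 chosen by their labels. They are 6 of the 15 LNCaP libraries and of the 30 samples of the series, which also holds VCaP cells (not analysed here). The other LNCaP groups are 0.03, 0.06 and 10 nM R1881, 3 libraries each, and the study asks how low doses, among which its labels count 0.1 nM, differ from a high dose in cells whose response to androgen is biphasic. All groups share the cell line, 130000 cells seeded per well, medium with 8% charcoal-treated serum and 48 h in it before a treatment of 24 h, so the vehicle cells are androgen-deprived cells and not cells in full serum. LNCaP is an established line from a lymph node metastasis. The libraries of each group are numbered 2, 3 and 4. The labels do not say that these came from separate cultures, so p-values measure only the spread between these libraries, which may be technical.

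Androgens act through a steroid receptor, a kind of transcription factor that is held by chaperones until its hormone binds, and then enters the nucleus and binds DNA as a dimer. It mostly acts from enhancers at a distance from the genes it controls, helped by pioneer factors such as FOXA1 and HOXB13. In luminal cells of the prostate it drives secreted proteases and lipid and secretory genes, and in LNCaP cells androgen is known to support growth at low doses and to slow it at high ones.

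Total counts per library ran from 40396721 to 43963087 with vehicle and from 33422397 to 46618984 at 0.1 nM. Levels are given as CPM, counts scaled to a common library total. They do not correct for transcript length, so they are compared between libraries and not between genes. In each group the library numbered 3 lay away from its partners along principal component 3 (5.86% of variance). Mitochondrial transcripts made up 10.2% of its counts with vehicle and 9.62% at 0.1 nM, against 6.75% to 7.68% in the remaining 4 libraries. Of the 13 mitochondrially encoded genes edgeR and DESeq2 called none in the comparison, none was at an unadjusted p under 0.05 with either, and 1 was called higher with only the libraries compared and the replicate block. Summed levels of 18 prostate luminal markers were 7310, 7750 and 7580 CPM with vehicle and 10100, 10900 and 10100 CPM at 0.1 nM. The sums were 80.6, 87.9 and 86.0 against 82.1, 93.7 and 85.5 CPM for basal markers, 44.3, 36.6 and 47.0 against 31.3, 25.6 and 30.6 CPM for fibroblast markers, and 20.2, 16.9 and 19.4 against 18.7, 14.8 and 21 CPM for leukocyte and endothelial markers. Of the 10 leukocyte and endothelial markers in the table only VWF passed the filter on low counts, and 7 had no count at 0.1 nM. In bulk RNA, fewer cells of a type and less RNA per cell cannot be told apart.

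Promoter sequences of 5 genes are shown because each holds, or in KLK2 nearly holds, a control element known for a gene group described below; the share of windows with each element follows. Each is the window of 250 bases before to 50 bases after a start site of the gene in RefSeq (GRCh38.p14), written along the gene's strand, with a searched element in capitals. In KLK3 (chr19:50854665-50854964, plus strand) the capitals mark a hexamer of the androgen response element, which begins 170 bases before the start. In its neighbour KLK2 (chr19:50873189-50873488, plus strand) they mark the 6 bases that align with it, which begin 176 bases before the start and are not an exact match. CDC6 (chr17:40287629-40287928, plus strand), a factor that loads the replicative helicase, has an E2F site in capitals. ANLN (chr7:36389612-36389911, plus strand), a scaffold of the dividing cell's cleavage furrow, has a pair of elements of the cell cycle homology region (CHR) that lie end to end on opposite strands. HSPA5 (chr9:125241294-125241593, minus strand), the chief chaperone of the endoplasmic reticulum, has an endoplasmic reticulum stress element.
KLK3: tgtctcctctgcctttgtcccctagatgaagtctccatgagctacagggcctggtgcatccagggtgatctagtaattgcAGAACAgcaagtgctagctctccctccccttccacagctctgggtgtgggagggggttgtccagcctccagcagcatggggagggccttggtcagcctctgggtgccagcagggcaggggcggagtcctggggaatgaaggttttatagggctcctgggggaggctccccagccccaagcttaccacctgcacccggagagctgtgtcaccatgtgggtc
KLK2: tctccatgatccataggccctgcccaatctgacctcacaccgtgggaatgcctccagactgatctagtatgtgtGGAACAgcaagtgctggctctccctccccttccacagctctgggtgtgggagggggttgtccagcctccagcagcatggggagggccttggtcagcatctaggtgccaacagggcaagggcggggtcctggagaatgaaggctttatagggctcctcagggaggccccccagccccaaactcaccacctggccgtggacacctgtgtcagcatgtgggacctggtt
CDC6: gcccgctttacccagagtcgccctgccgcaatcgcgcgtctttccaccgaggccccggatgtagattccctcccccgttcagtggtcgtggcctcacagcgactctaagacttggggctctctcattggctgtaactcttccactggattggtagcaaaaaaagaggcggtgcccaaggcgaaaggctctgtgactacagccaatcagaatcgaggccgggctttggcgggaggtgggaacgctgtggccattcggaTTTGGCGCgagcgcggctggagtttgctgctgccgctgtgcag
ANLN: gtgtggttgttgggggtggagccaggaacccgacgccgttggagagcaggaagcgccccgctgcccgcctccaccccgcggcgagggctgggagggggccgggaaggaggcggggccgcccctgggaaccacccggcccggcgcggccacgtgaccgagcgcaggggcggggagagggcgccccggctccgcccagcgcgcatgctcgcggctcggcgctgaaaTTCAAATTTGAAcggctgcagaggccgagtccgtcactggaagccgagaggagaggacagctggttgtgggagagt
HSPA5: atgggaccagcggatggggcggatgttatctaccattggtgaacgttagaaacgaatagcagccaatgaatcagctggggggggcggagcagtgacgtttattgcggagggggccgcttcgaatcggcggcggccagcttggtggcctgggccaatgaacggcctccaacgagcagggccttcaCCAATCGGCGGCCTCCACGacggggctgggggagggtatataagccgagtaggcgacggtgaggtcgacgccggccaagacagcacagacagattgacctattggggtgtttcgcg

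Aligned over 15 bases from the first base of the KLK3 hexamer, 14 bases of KLK2 were equal and the one difference was A1G, counted from 1 at that base. Motifs were searched by their letters on both strands in 35116 windows of the RefSeq table, of which 17130 belonged to 11982 tested genes, and a match describes the letters only. The hexamer (TGTTCT, or AGAACA on the other strand) was in 9.55% of windows of genes called higher at 0.1 nM, 9.52% of genes called lower, 10.5% of genes not called and 14.8% of all windows. Among genes changed at least 2-fold it was in 13.1% of windows of the higher and 12.8% of the lower, and in 5 of 36 windows (13.9%) of androgen-induced genes. A pair of hexamers (AGAACA, any 3 bases, TGTTCT) was in 1 of all windows and in none of a tested gene.

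At least 1 of the E2F sites TTTCCCGC, TTTGGCGC and TTCCCGCC, some of which overlap each other, was in 9.74% of windows of genes called higher, 4.49% of genes called lower, 6.28% of genes not called and 4.59% of all windows, and in 25 of 51 windows (49.0%) of the DNA replication genes described below. The CHR element (TTTGAA, or TTCAAA on the other strand) was in 12.2% of windows of genes called higher, 9.64% of genes called lower and 9.98% of genes not called. It was in 15.2% of all windows, which include genes not tested, and in 23 of 38 windows (60.5%) of mitosis genes. Among genes changed at least 2-fold it was in 15.7% of windows of the higher and 11.6% of the lower. The stress element (CCAAT, any 9 bases, CCACG) was in 10 windows of genes called higher (0.233%), 2 of genes called lower (0.0477%) and 7 of genes not called (0.0809%), and in 10 of 34 windows (29.4%) of genes of the unfolded protein response.

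At 0.1 nM, 3958 of 18403 tested genes (21.5%) were higher than with vehicle and 3787 (20.6%) lower. With library totals alone in place of TMM scaling the split was 3145 higher to 4486 lower. At least 2-fold changes were fewer, 603 higher (3.28%) and 711 lower (3.86%). Which direction had more of them depended on the setting: the stricter filter on low counts gave 443 higher and 378 lower, and DESeq2 634 and 614. The median change over all tested genes was -0.03 on the log2 scale. Between a log2 change of 1 and 3 the lower genes were more (426 higher to 598 lower from 1 to 2, and 69 to 95 from 2 to 3), whereas beyond 3 there were 108 higher and 18 lower. Protein-coding genes were called higher more often (3618 of 13340, 27.1%) than lower (2987, 22.4%), but less often with library totals alone (2858 higher and 3552 lower). Long noncoding RNAs were called lower more often (586 of 3135, 18.7%) than higher (201, 6.41%), and lower calls outnumbered higher ones for them under every setting tried, with 138 to 250 higher and 462 to 698 lower.

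**Figure D1:**
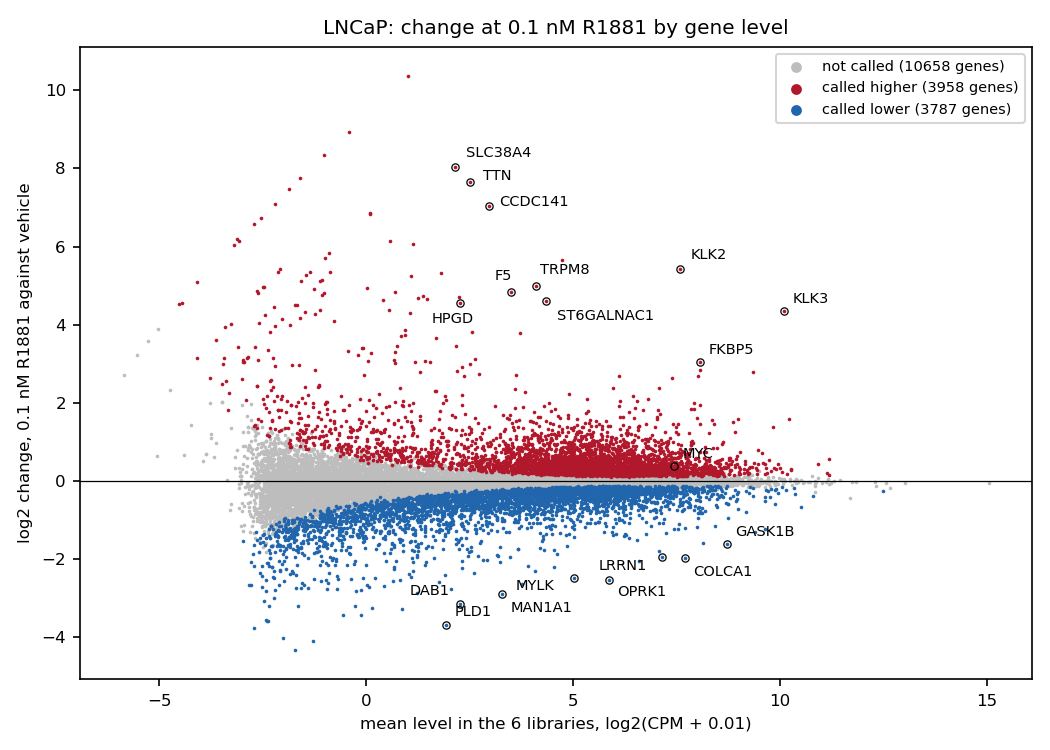
Each point is 1 of 18403 tested genes, with its mean level in the 6 libraries on the x axis, log2(CPM + 0.01), and its log2 change at 0.1 nM R1881 against vehicle on the y axis; colours mark the genes called higher (3958), lower (3787) or not called. Changes above a log2 of 3 were mostly rises (108 higher, 18 lower), with SLC38A4 at the top and PLD1 at the bottom among the labelled genes.

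The largest rises among genes with a mean of at least 5 CPM and no overlap between the groups included secreted and membrane proteins. KLK2, a trypsin-like protease of the prostate (chromosome 19, 50861568 to 50880567), was at 7.65, 9.44 and 9.23 CPM with vehicle and 366, 391 and 369 CPM at 0.1 nM, a log2 change of 5.42 (SE 0.10, adjusted p = 1.93e-16). Its near copy KLK3, which encodes prostate-specific antigen and whose window above holds the exact hexamer, was at 93.7, 107 and 107 CPM and 2069, 2172 and 2020.0 CPM, a log2 change of 4.35. Reads of the pair may be split by the counting, so their separate values are uncertain. TRPM8, a cold- and menthol-gated cation channel (chromosome 2, 233917398 to 234019522), was at 0.704, 1.29 and 1.15 CPM with vehicle and 27.6, 37.9 and 34.4 CPM at 0.1 nM, a log2 change of 4.98 (SE 0.23, adjusted p = 1.93e-11). F5, which encodes coagulation factor V (chromosome 1, 169514166 to 169586588), was at 0.422, 1.09 and 0.785 CPM and 22.2, 22.7 and 21.2 CPM, a log2 change of 4.83 (SE 0.21, adjusted p = 7.41e-12). In all of these genes each 0.1 nM library lay far above each vehicle library.

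Rises of similar size came in enzymes, a receptor and a transcription factor. The nicotinic receptor subunit gene CHRNA2 was at 1.1, 0.955 and 1.04 CPM with vehicle and 51.8, 53.1 and 52 CPM at 0.1 nM, a log2 change of 5.66 (SE 0.14, adjusted p = 1.1e-14). ST6GALNAC1, a sialyltransferase of O-linked glycans, was at 1.38, 1.98 and 1.5 CPM and 42, 35.9 and 40.02 CPM, with a log2 change of 4.59. HPGD, which inactivates prostaglandins, was at 0.493, 0.444 and 0.231 CPM and 8.2, 10.5 and 9.14 CPM, with a log2 change of 4.57. The groups did not overlap in these genes, which was a condition of their choice, and the 3 libraries of 0.1 nM differed little among themselves in CHRNA2. SNAI2, a repressor known from epithelial to mesenchymal transition, was at 0.141, 0.266 and 0.0923 CPM with vehicle and 6.77, 7.1 and 6.68 CPM at 0.1 nM, with a log2 change of 5.33. NPPC, which encodes C-type natriuretic peptide, was at 0.117, 0.200 and 0.300 CPM and 4.43, 5.05 and 6.41 CPM, with a log2 change of 4.66. The amino acid transporter SLC38A4, the muscle protein TTN and CCDC141, which overlaps TTN on the same strand, completed the 12 largest rises together with the noncoding PSLNR, with log2 changes of 8.04, 7.66, 7.04 and 4.71.

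The largest falls were smaller in size than the largest rises. MYLK, myosin light chain kinase (chromosome 3, 123610049 to 123884331), was at 55.7, 50.00 and 58.6 CPM with vehicle and 9.17, 10.1 and 10.3 CPM at 0.1 nM, a log2 change of -2.47 (SE 0.08, adjusted p = 4.21e-13). OPRK1, the kappa opioid receptor gene, was at 89.6, 102 and 106 CPM and 16.8, 18.4 and 16.7 CPM, a log2 change of -2.52 (SE 0.12, adjusted p = 4.57e-11). AOC1, a diamine oxidase that degrades histamine and putrescine (chromosome 7, 150824627 to 150861504), was at 5.68, 9.02 and 7.11 CPM and 0.917, 1.28 and 0.950 CPM, a log2 change of -2.77 (SE 0.20, adjusted p = 7.88e-09). Every 0.1 nM library lay below every vehicle library in these 3 genes, which was a condition of their choice. The phospholipase PLD1, the adaptor DAB1, the mannosidase MAN1A1, VWA2, LRRC31, DIPK2B, the adhesion molecule AMIGO2, the ubiquitin ligase MID1 and the matrix protein MATN2 completed the 12, with log2 changes between -3.68 (PLD1) and -2.22 (MATN2).

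**Figure D2:**
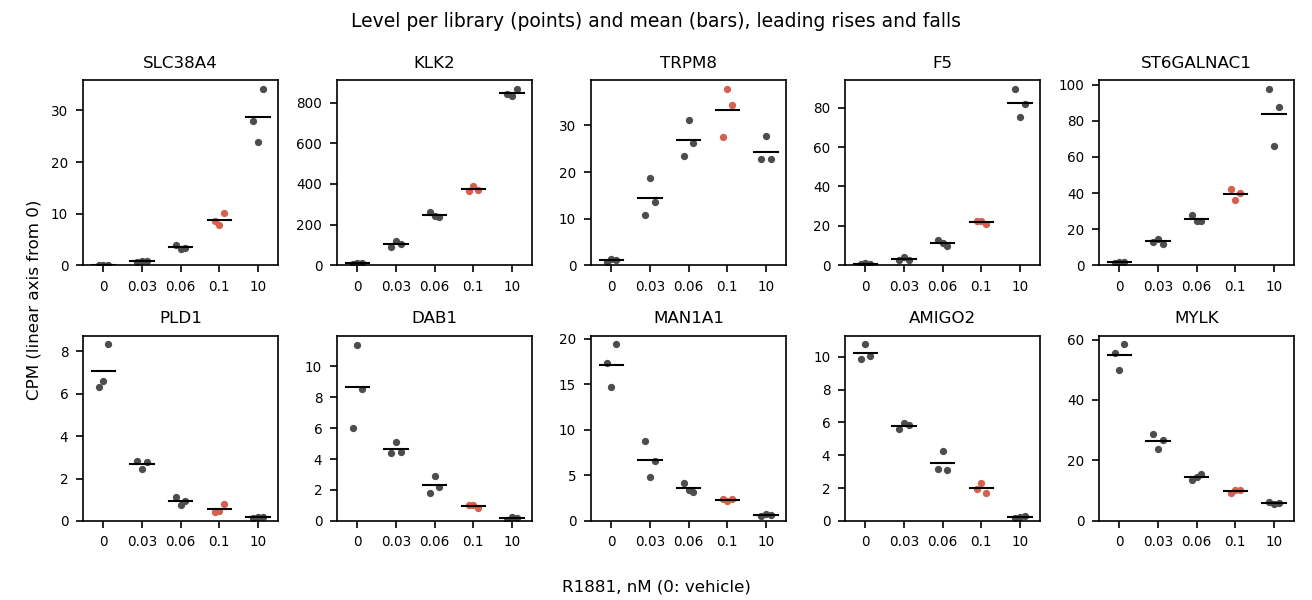
Levels in CPM (linear axes from 0) of 5 leading rises (top) and 5 leading falls (bottom) in the 3 libraries (points) of each dose, with the mean (bar), the 0.1 nM libraries in red. The vehicle and 0.1 nM libraries did not overlap in any of the 10 genes, which was a condition of their choice. TRPM8 was at 0.704, 1.29 and 1.15 CPM with vehicle, 27.6, 37.9 and 34.4 CPM at 0.1 nM and 22.8, 27.7 and 22.7 CPM at 10 nM.

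Genes with a mean of at least 100 CPM in a group also changed several-fold. The rises included markers of the prostate lineage. SLC45A3, a transporter known as prostein, was at 64.9, 73.5 and 69.9 CPM with vehicle and 457, 457 and 436 CPM at 0.1 nM, a 6.48-fold rise. TMPRSS2, a membrane serine protease, was at 59.96, 81.8 and 57.5 CPM and 414, 580.4 and 421 CPM, with the highest value of each group in replicate 3. Among the falls, GASK1B, a Golgi-associated protein, was at 676, 559.8 and 666 CPM with vehicle and 235, 185 and 204 CPM at 0.1 nM, a log2 change of -1.61 (SE 0.12, adjusted p = 1.13e-08). CAMK2N1, an inhibitor of calcium/calmodulin-dependent kinase II, was at 422, 433 and 414 CPM and 136, 145 and 141 CPM, with a log2 change of -1.59. The other falls of this kind were COLCA1 (-1.96), LRRN1 (-1.95), CSMD1 (-1.80) and ZBTB43 (-1.50), and COLCA1 lies opposite COLCA2, so that reads of the pair cannot be told apart without the strand setting, which is not given in the sources used here.

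Among noncoding RNAs that have a symbol, average 5 CPM or more and show no overlap of libraries, the largest rises besides PSLNR were CTBP1-AS, at 7.2, 7.71 and 9.67 CPM with vehicle and 28.3, 37 and 27.8 CPM at 0.1 nM, and FAM13A-AS1, at 4.74, 5.59 and 5.26 CPM and 12.6, 21.8 and 13.4 CPM. LINC02614 fell from 13.3, 16.1 and 16.2 CPM to 3.21, 4.22 and 3.44 CPM and HOXC13-AS from 8.63, 8.48 and 8.08 CPM to 2.77, 2.66 and 2.08 CPM. Values of the antisense genes carry the same limit of strand. STEAP4, a metalloreductase chosen after its values were seen, had no count in any vehicle library and was at 2.72, 4.90 and 4.34 CPM at 0.1 nM, at least 174-fold above a floor of 3 counts over the 3 vehicle libraries together, which covers counting error only.

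Gene groups were read from 44 lists, each described by its counts beside the 21.5% of all tested genes called higher and the 20.6% called lower. For protein-coding genes alone, the closer background for these lists, the shares were 27.1% and 22.4%. Of 30 androgen-induced genes 29 rose, and their median log2 change was 2.14. Of 14 tested androgen-repressed genes 11 fell and 2 rose, with a median of -1.12. Both lists were drawn up from known androgen targets, some of them known in LNCaP cells, so their direction is not independent evidence. Among the repressed genes, the chemokine scavenger receptor ACKR3 was at 144, 148 and 149 CPM with vehicle and 73.8, 69.3 and 71.4 CPM at 0.1 nM, a log2 change of -1.04 (SE 0.05, adjusted p = 1.97e-11). The cytokine receptor LIFR went against the list: it was at 34.1, 36 and 39.97 CPM with vehicle and 58.8, 74.5 and 59.1 CPM at 0.1 nM and rose by a log2 of 0.81. The steroid dehydrogenase HSD17B6 also rose, by 0.96. Of 5 tested kallikreins 4 rose, KLK4 from 28.1, 39.7 and 27.5 CPM to 132, 171 and 128 CPM and KLK15 from 0.680, 0.511 and 0.692 CPM to 1.83, 1.002 and 1.69 CPM, and 1 fell, a call lost with DESeq2, without the libraries numbered 3, and without vehicle replicate 3 or 4 or any 1 of the 0.1 nM libraries.

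Of 20 tested steroid receptors, pioneer factors and coregulators 12 fell and 3 rose. The progesterone receptor gene PGR was at 1.64, 2.4 and 1.92 CPM with vehicle and 0.127, 0.348 and 0.119 CPM at 0.1 nM, and the glucocorticoid receptor gene NR3C1 at 0.680, 1.04 and 0.600 CPM and 0.153, 0.305 and 0.297 CPM. The pioneer factor genes HOXB13 and FOXA1 had log2 changes of -0.46 and -0.23. GRHL2, a factor that opens epithelial enhancers, rose, from 101, 108 and 103 CPM to 163, 185 and 171 CPM. Of 8 coactivators 4 fell and none rose. NCOA3, the steroid receptor coactivator of this group with the smallest p, was at 48.2, 48.8 and 54.6 CPM with vehicle and 30.3, 32 and 29.1 CPM at 0.1 nM, a log2 change of -0.73 (SE 0.06, adjusted p = 3.98e-08). Of 4 corepressors 2 rose and 2 fell, and NCOR1 had a log2 change of 0.22. Of 17 tested genes of androgen metabolism 4 rose and 3 fell. With the replicate number as a block 7 of that list fell, and without 0.1 nM replicate 3 only 1. The glucuronidation enzyme UGT2B15 was at 234, 54.6 and 177 CPM with vehicle and 59.5, 13.2 and 40.7 CPM at 0.1 nM, lowest in replicate 3 of both groups. Its fall, a log2 change of -2.05 (SE 0.62, adjusted p = 0.0132), did not pass without vehicle replicate 2 (adjusted p = 0.0619) or without 0.1 nM replicate 3 (adjusted p = 0.0545). These fits took no replicate block. With the replicate number as a block the fall passed, and in each number the 0.1 nM library was below the vehicle library. Reads of UGT2B15 may be shared with its near copy UGT2B17.

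**Figure D3:**
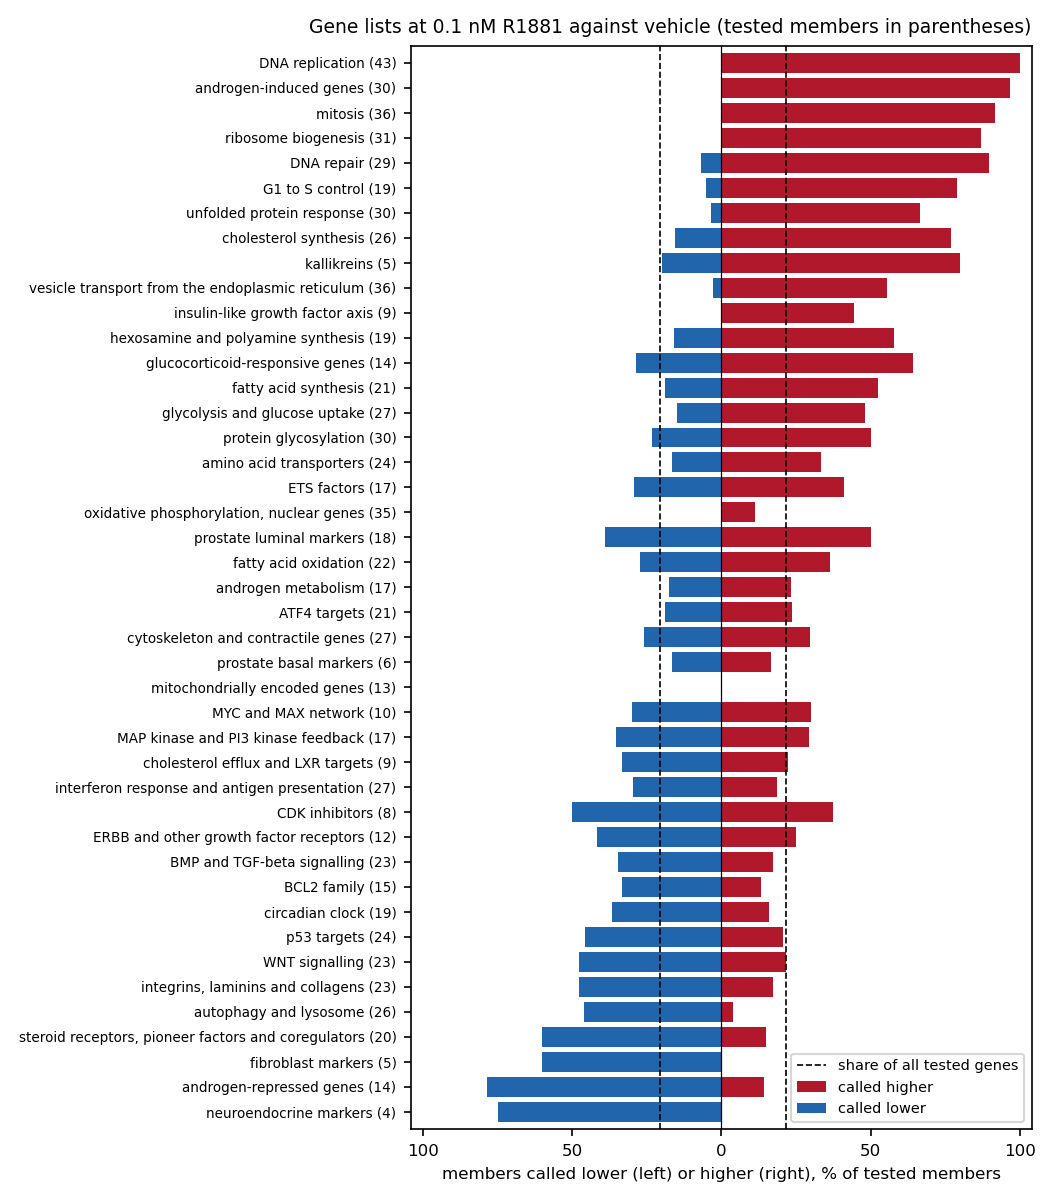
Bars give the percentage of tested members called higher (right) or lower (left) at 0.1 nM against vehicle for the 43 lists with at least 4 tested members, whose number is in parentheses; dashed lines mark the shares of all tested genes (21.5% higher, 20.6% lower). DNA replication genes were all called higher (43 of 43), and androgen-repressed genes were mostly lower (11 of 14).

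Genes that copy DNA rose as a group. All 43 DNA replication genes were called higher, with a median log2 change of 1.05: 12 of origin licensing, 7 of origin firing, 15 of the replication fork, 5 of nucleotide supply and 4 of chromatin. MCM5, a subunit of the replicative helicase, was at 58.7, 51.2 and 54.7 CPM with vehicle and 136, 126 and 144 CPM at 0.1 nM, a log2 change of 1.30 (SE 0.06, adjusted p = 3.85e-11). CDC6, whose promoter window above carries an E2F site, was at 38.3, 30.6 and 38.2 CPM and 111, 97.5 and 126 CPM, a log2 change of 1.64 (SE 0.10, adjusted p = 7.29e-10). PCNA, the sliding clamp of the fork, was at 112, 95.7 and 102 CPM and 226, 206 and 235 CPM. The primase subunit PRIM2 was at 12.5, 12.2 and 14 CPM and 30.7, 31.2 and 34.1 CPM. In these 4 genes all 0.1 nM libraries were above all vehicle libraries, which largely follows from naming list members by their smallest p.

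Upstream and downstream of replication the direction was similar. Of 19 tested genes of G1 to S control 15 rose and 1 fell. E2F1, the activating factor of S phase genes, was at 44.7, 33.7 and 41.6 CPM with vehicle and 113, 97.3 and 117 CPM at 0.1 nM, a log2 change of 1.45 (SE 0.09, adjusted p = 1.64e-09). CDC25A, the phosphatase that activates CDK2, was at 27.2, 20.7 and 25.1 CPM and 61.7, 55.3 and 62.6 CPM, and CDK2 itself at 52, 42.9 and 49.4 CPM and 109, 97.2 and 122 CPM. The gene that fell was RBL2, which encodes the pocket protein p130 of quiescent cells, with a log2 change of -0.33. Of 36 mitosis genes 33 rose and none fell, with a median of 0.77. The furrow scaffold ANLN was at 54.3, 41 and 56.9 CPM with vehicle and 122, 105 and 126 CPM at 0.1 nM, and the condensin subunit NCAPH at 31.6, 28.5 and 31.3 CPM and 61.1, 54.9 and 64.3 CPM. Of 29 DNA repair genes 26 rose and 2 fell, with a median of 0.88. RAD54L, a motor of homologous recombination, was at 22.8, 18.7 and 20.8 CPM and 55.7, 49.4 and 56.9 CPM, a log2 change of 1.38 (SE 0.10, adjusted p = 4.74e-09). The mismatch repair gene PMS2 fell, from 113, 105 and 113 CPM to 56.7, 47.7 and 53.8 CPM, and its reads may be shared with its pseudogene copies.

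Inhibitors of the cycle moved in both directions. All 3 tested genes of the CIP/KIP family fell. CDKN1A, which encodes p21, was at 162, 144 and 137 CPM with vehicle and 112, 93 and 101 CPM at 0.1 nM, a log2 change of -0.53 (SE 0.08, adjusted p = 5.57e-05). Of the other 5 inhibitors 3 rose and 1 fell: CDKN2C was at 20.2, 16.6 and 20.2 CPM and 32.3, 29.99 and 40.5 CPM, CDKN2D at 7.06, 7.35 and 6.97 CPM and 11.9, 11.8 and 12.2 CPM, and CDKN3 at 21.3, 16.3 and 18.6 CPM and 30.6, 24.1 and 29.99 CPM, while the one that fell, CDKN2B, was at 3.12, 4.42 and 2.95 CPM and 1.86, 1.83 and 2.14 CPM. Of 24 p53 targets 11 fell and 5 rose. TP53INP1, a stress-induced regulator, was at 488, 425 and 513 CPM with vehicle and 221, 211 and 215 CPM at 0.1 nM, and the sestrin SESN1 at 161, 189 and 182 CPM and 97.7, 106 and 100.4 CPM. PMAIP1, which encodes the death-promoting protein NOXA, rose, from 6.45, 9.35 and 7.27 CPM to 15.5, 18.8 and 16.9 CPM. Of 15 tested genes of the BCL2 family 5 fell and 2 rose, and BMF, a BH3-only member, was at 42.6, 30.1 and 37 CPM with vehicle and 16.7, 12.2 and 14.7 CPM at 0.1 nM.

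Genes of ribosome assembly rose by less. Of 31 such genes 27 rose and none fell, with a median log2 change of 0.38. NOP56, a core protein of small nucleolar particles, was at 143, 139 and 130.0 CPM with vehicle and 211, 201 and 212 CPM at 0.1 nM, a log2 change of 0.60 (SE 0.05, adjusted p = 3.39e-08), and an intron-hosted small nucleolar RNA overlaps it. LYAR, a nucleolar protein, was at 17.6, 15.6 and 14.2 CPM and 32.3, 26.9 and 32.1 CPM. MYC rose by a log2 of 0.38, from 153, 152 and 151 CPM to 209, 183 and 201 CPM. Of 10 tested genes of the MYC and MAX network 3 rose and 3 fell, and the MYC antagonist MXI1 was at 62.9, 65 and 61.4 CPM with vehicle and 47.2, 44.9 and 47.7 CPM at 0.1 nM.

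Lipid synthesis genes were mostly higher. Of 26 tested cholesterol synthesis genes 20 rose and 4 fell, with a median of 0.48. HMGCS1, an early enzyme of the mevalonate pathway, was at 89.6, 87.3 and 86.7 CPM with vehicle and 131, 139.9 and 137 CPM at 0.1 nM, a log2 change of 0.63 (SE 0.05, adjusted p = 8.44e-09). INSIG2, which holds the sterol sensor in the endoplasmic reticulum, fell, from 48.2, 45.2 and 41.9 CPM with vehicle to 22.5, 23.5 and 23.2 CPM at 0.1 nM. ABCG1, a cholesterol exporter, was at 49, 38.2 and 41.1 CPM with vehicle and 18.1, 15.6 and 16.5 CPM at 0.1 nM, a log2 change of -1.35 (SE 0.10, adjusted p = 9.43e-09), and of 9 tested genes of efflux and LXR targets 3 fell and 2 rose.

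Of 6 tested elongases, which lengthen fatty acids, 5 rose and none fell, within a list of 21 fatty acid synthesis genes of which 11 rose and 4 fell. ELOVL7 was at 14.9, 22.4 and 18.5 CPM with vehicle and 108, 135 and 118 CPM at 0.1 nM, a log2 change of 2.69 (SE 0.12, adjusted p = 8.22e-12), and ELOVL5 at 233, 289 and 246 CPM and 709.7, 849.9 and 730.1 CPM. The activating enzymes diverged: ACSL3 rose, from 159.6, 167 and 165 CPM to 465, 493 and 506 CPM, and its relative ACSL4 fell, from 10.2, 11.5 and 10.7 CPM to 6.7, 7.67 and 7.13 CPM. Of 22 fatty acid oxidation genes 8 rose (36.4%) and 6 fell (27.3%). ACADL, a dehydrogenase of long chains, had 1 count in the vehicle libraries and a ratio of levels of 38.6 (95% interval 6.48 to 1570 for counting error).

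Some genes that feed sugar into the cell and into glycans also rose. Of 27 tested genes of glycolysis and glucose uptake 13 rose and 4 fell, the latter 2 without vehicle replicate 2. The glucose transporter SLC2A3 was at 0, 0.0222 and 0.0231 CPM with vehicle and 1.76, 1.94 and 2.58 CPM at 0.1 nM, a ratio of 135 from 2 vehicle counts (95% interval 37 to 1120 for counting error). Hexokinase HK2 was at 31.7, 34.6 and 28.1 CPM and 58, 62.1 and 59.7 CPM. Of 19 genes of hexosamine and polyamine synthesis 11 rose and 3 fell. UAP1, which makes UDP-N-acetylglucosamine, was at 120.4, 128 and 129.6 CPM with vehicle and 371, 394 and 400.4 CPM at 0.1 nM, a log2 change of 1.62 (SE 0.06, adjusted p = 2.08e-12), and SMS, spermine synthase, at 101, 92.7 and 99.5 CPM and 186, 176 and 212 CPM. Of 35 nuclear genes of oxidative phosphorylation 4 were higher and none lower, 1 without 0.1 nM replicate 2, 2 without vehicle replicate 4, while library totals alone gave 1 higher and 3 lower, so these genes mostly did not pass the test.

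Folding and transport genes of the secretory pathway rose in part. Of 30 genes of the unfolded protein response 20 rose and 1 fell, with a median of 0.28. The co-chaperone DNAJB9 was at 13.5, 14 and 12.3 CPM with vehicle and 22.4, 26.2 and 22.6 CPM at 0.1 nM, a log2 change of 0.84 (SE 0.08, adjusted p = 1.38e-07), and ERO1A, an oxidase that forms disulfides, at 22.7, 24.1 and 23.6 CPM and 33.7, 37.6 and 38 CPM. Its relative ERO1B fell, from 11, 12.6 and 13 CPM to 7.74, 9.76 and 8.55 CPM. HSPA5, named because its window is printed above, was at 777, 617 and 771 CPM with vehicle and 758, 644 and 714 CPM at 0.1 nM and did not pass the test (adjusted p = 0.818). Of 36 tested genes of vesicle transport 20 rose and 1 fell, with a median of 0.19, and KDELR2, which returns escaped chaperones, was at 151, 148 and 144 CPM and 209, 239 and 226 CPM. Of 30 tested glycosylation genes 15 rose and 7 fell, or 8 and 9 with library totals alone. The branching enzyme GCNT1 was at 44.1, 47.4 and 47.4 CPM with vehicle and 105, 111 and 112 CPM at 0.1 nM, and the sialyltransferase ST3GAL1 at 769.6, 702 and 728 CPM and 473, 395 and 409 CPM. Of 24 tested amino acid transporters 8 rose, 5 without vehicle replicate 4, and 4 fell, and of 21 ATF4 targets 5 rose and 4 fell, with 8 higher without vehicle replicate 3 and 9 without all libraries numbered 3.

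Autophagy and lysosome genes went the other way. Of 26 such genes 12 fell and 1 rose, with a median of -0.16, and 4 rose with the replicate number as a block or without the libraries numbered 3. All 3 cargo receptors fell: OPTN was at 18.5, 17.6 and 19.4 CPM with vehicle and 8.61, 8.76 and 7.54 CPM at 0.1 nM, a log2 change of -1.15 (SE 0.09, adjusted p = 1.64e-08), NBR1 at 216, 213 and 232 CPM and 159, 158 and 166 CPM, and SQSTM1, which encodes p62, at 495, 562 and 486 CPM and 344, 367 and 317 CPM. The 1 gene that rose was ATG101, a subunit of the initiating kinase complex, with a log2 change of 0.50.

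Growth factor receptors diverged. Of 9 tested genes of the insulin-like growth factor axis 4 rose and none fell. The receptor IGF1R was at 15.9, 24.1 and 20.03 CPM with vehicle and 90.3, 124 and 100.3 CPM at 0.1 nM, a log2 change of 2.39 (SE 0.18, adjusted p = 1.29e-08), and the adaptor IRS2 at 3.35, 4.22 and 3.16 CPM and 12.9, 15.9 and 12.1 CPM. EGFR rose, from 67, 74.8 and 74.5 CPM to 134, 156 and 138 CPM, and its partner ERBB2 fell, from 342, 312 and 356 CPM to 209, 182 and 198 CPM, in a list of 12 tested receptors and ligands with 3 higher and 5 lower. Of 17 genes of MAP kinase and PI3 kinase feedback 5 rose and 6 fell. INPP4B, a phosphatase that acts on PI3 kinase products, was at 4.36, 5.02 and 5.26 CPM with vehicle and 21.2, 24.2 and 25.4 CPM at 0.1 nM, a log2 change of 2.27 (SE 0.08, adjusted p = 1.25e-12), and the PI3 kinase inhibitor PIK3IP1 at 37.4, 43.3 and 40.2 CPM and 19.6, 21.4 and 21.1 CPM.

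In developmental pathways more genes fell than rose. Of 23 tested WNT genes 11 fell and 5 rose. The receptor ROR2 was at 3.47, 3.11 and 4.08 CPM with vehicle and 0.687, 0.588 and 0.653 CPM at 0.1 nM, a log2 change of -2.47 (SE 0.19, adjusted p = 1.17e-08), the frizzled receptor FZD5 at 21.7, 26.4 and 24.6 CPM and 62.4, 73.5 and 73.4 CPM, and the ligand WNT7B at 37.7, 36.9 and 38.1 CPM and 82.8, 80.4 and 84.3 CPM. Of 23 tested genes of BMP and TGF-beta signalling 8 fell and 4 rose. PMEPA1, which dampens TGF-beta signalling, was at 47.8, 46.9 and 44.8 CPM with vehicle and 272, 316 and 279.5 CPM at 0.1 nM, and the effector SMAD3 at 23.9, 25.2 and 26.3 CPM and 13.8, 14.7 and 13.9 CPM. Of 23 tested integrins, laminins and collagens 11 fell and 4 rose: the collagen COL5A2 was at 22.1, 28.1 and 23.8 CPM and 5.25, 6.21 and 4.72 CPM, and the laminin LAMC1 at 266, 253 and 263 CPM and 539.6, 532 and 496 CPM.

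Of 17 tested ETS factors 7 rose and 5 fell. SPDEF, a factor of luminal secretory cells, was at 69.9, 68.4 and 74.9 CPM with vehicle and 136, 153 and 156 CPM at 0.1 nM, a log2 change of 1.06 (SE 0.06, adjusted p = 5.82e-10), while ETV1, which is rearranged in LNCaP cells, rose by a log2 of 0.30, and ERG did not pass the filter on low counts. Of 14 glucocorticoid-responsive genes 9 rose and 4 fell. ZBTB16 was at 56.5, 74 and 64 CPM with vehicle and 184, 203 and 197 CPM at 0.1 nM, whereas TSC22D3, which encodes GILZ, fell from 34.1, 40.9 and 33.8 CPM to 23.4, 25 and 27.6 CPM. Of 19 clock genes 7 fell and 3 rose, 5 with the replicate number as a block, and PER1 was at 12.2, 11.5 and 11 CPM and 34, 32.9 and 29.8 CPM. Of 27 tested genes of the interferon response and antigen presentation 8 fell and 5 rose. Leaving out 1 library lowered the falls to 5 (vehicle replicate 3 or 0.1 nM replicate 4) and the rises to 3 (vehicle replicate 2 or 4) or 2 (0.1 nM replicate 3). HLA-E, a nonclassical presenting molecule, was at 24.4, 24 and 24.5 CPM with vehicle and 15.2, 13.8 and 15.1 CPM at 0.1 nM, and the light chain B2M at 135, 150.2 and 134 CPM and 185, 208 and 188 CPM. Of 27 tested cytoskeletal genes 8 rose and 7 fell, and TUBA3D, whose reads may be shared with its near copy TUBA3E, was at 0.0469, 0.133 and 0 CPM and 3.67, 5.14 and 4.04 CPM.

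Cell type markers were read beside the same shares, 21.5% of all tested genes called higher and 20.6% called lower. Of 18 luminal markers 9 rose and 7 fell, so not all members moved with the higher sum given above. Of 6 tested basal markers 1 rose and 1 fell, 16.7% each, which is below the shares of all tested genes. KRT14, which rose, had a ratio of 26.1 (95% interval 8.57 to 129 for counting error) from 3 vehicle counts. ITGB4, which fell, was at 7.41, 7.11 and 7.78 CPM with vehicle and 3.54, 3.55 and 4.93 CPM at 0.1 nM. Neuroendocrine markers summed to 365, 311 and 366 CPM with vehicle and 176, 146 and 176 CPM at 0.1 nM, of which DDC, an amine-forming decarboxylase also listed as androgen-repressed, made up 311, 257 and 307 and 136, 109 and 137 CPM. Of 5 tested fibroblast markers 3 fell: COL1A1 was at 34.7, 25.8 and 37.2 CPM and 24.6, 18.2 and 22.8 CPM, VIM at 6.71, 7.28 and 6.6 CPM and 4.96, 5.16 and 5.34 CPM, and COL3A1 at 1.67, 2.29 and 2.01 CPM and 0.509, 1.24 and 1.1 CPM. Their part in the other results was not tested.

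Along principal component 1 (57.8% of variance) the 0.1 nM libraries lay between those of 0.06 nM and 10 nM. Along component 2 (11%) they were at -23.71, -17.32 and -25.81, away from both vehicle (20.91, 24.07 and 23.94) and 10 nM (15.36, 19.8 and 20.21). The comparisons with the neighbouring doses share the 0.1 nM libraries. Against 0.06 nM, 197 genes (1.07%) were higher and 54 (0.293%) lower. Leaving out 1 library moved these counts by more than 1.5 times: the higher genes were 103 without 0.06 nM replicate 2, 86 without 0.06 nM replicate 4, 106 without 0.1 nM replicate 3 and 93 without 0.1 nM replicate 4, and the lower genes 29 without 0.06 nM replicate 3, 20 without 0.06 nM replicate 4, 30 without 0.1 nM replicate 3 and 25 without 0.1 nM replicate 4. Among the androgen-induced genes 22 of 30 were higher at 0.1 than at 0.06 nM and none lower. No gene of DNA replication, mitosis, G1 to S control or DNA repair was called between these doses by the main edgeR fit, which took no replicate block. At an unadjusted p under 0.05, 11 of 43 replication, 2 of 36 mitosis, 2 of 19 G1 to S and 5 of 29 repair genes were higher and 2 repair genes lower. The share of all tested genes at that unadjusted p was not counted, so these counts have no background beside them. DESeq2 called 1 replication gene higher, among 305 higher genes in all. Without the libraries numbered 3, edgeR called 4 replication, 6 mitosis and 1 G1 to S gene higher and 1 repair gene lower, among 304 higher and 103 lower genes in all. With the replicate number as a block it called 8 replication, 18 mitosis, 3 G1 to S and 3 repair genes higher and 2 repair genes lower, among 594 higher and 305 lower genes in all. Without the filter on low counts 4 replication, 5 mitosis and 2 G1 to S genes were higher and 2 repair genes lower, among 339 higher and 162 lower genes in all. With only the libraries compared and the replicate block, 14 replication, 25 mitosis, 5 G1 to S and 7 repair genes were higher and 2 repair genes lower. That fit called 591 genes higher and 275 lower in all. Whether these genes are called between the 2 doses thus depends on the setting, with the most calls in the fits that took the block. FKBP5, a chaperone of steroid receptors, was 1.19 higher on the log2 scale (adjusted p = 2.37e-08), NPPC 1.54, SLC38A4 1.35, TTN 1.42 and SNAI2 1.17. OPRK1 had a log2 change of -0.84 (adjusted p = 0.00111), TMEM140 of -0.80 and IL1RN, the interleukin 1 receptor antagonist gene, of -0.75.

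From 0.1 to 10 nM, 3787 genes (20.6%) were higher and 3589 (19.5%) lower, or 2164 higher and 5994 lower with library totals alone, under which the median change of all genes was -0.17 against -0.01. Of the androgen-induced genes 27 of 30 were higher and 2 lower (median 1.17). Of the DNA replication genes 41 of 43 were lower at 10 than at 0.1 nM, with a median of -0.65, and with library totals alone 42 were lower with a median of -0.80. Also lower were 24 of 29 DNA repair genes, 14 of 19 genes of G1 to S control and 11 of 36 mitosis genes, or 27, 16 and 23 with library totals alone. In the secretory pathway 28 of 30 genes of the unfolded protein response (median 0.61) and all 36 tested genes of vesicle transport (median 0.61) were higher at 10 nM, or 25 and 33 with library totals alone. Autophagy and lysosome genes were higher at 10 nM for 13 of 26 and lower for 1, or 6 higher and 3 lower with library totals alone.

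**Figure D4:**
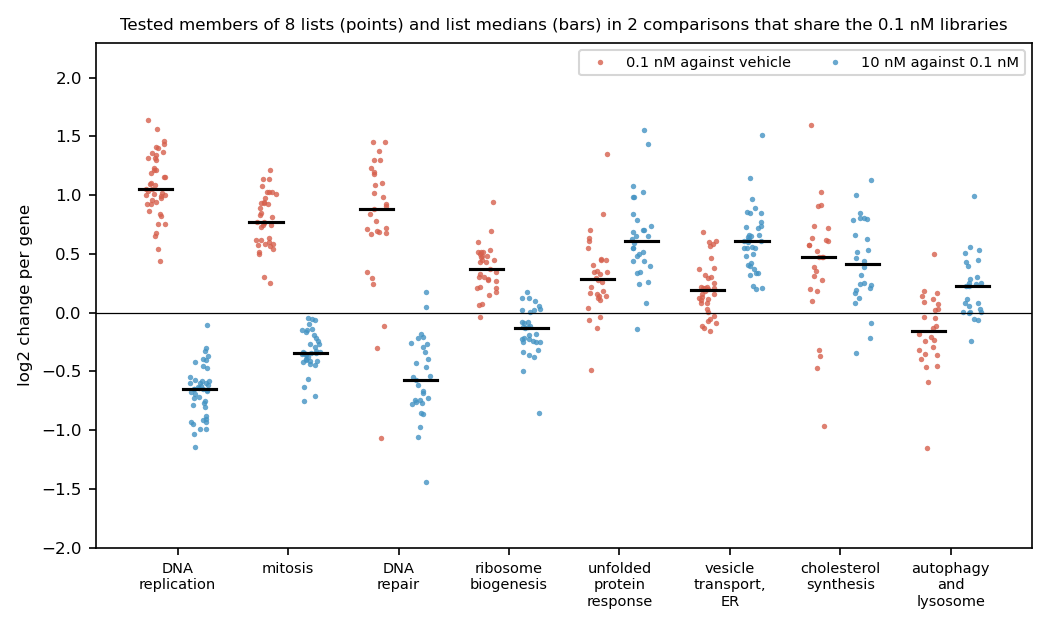
Points are the tested members of 8 lists, with their log2 change on the y axis at 0.1 nM against vehicle and at 10 nM against 0.1 nM, and bars are list medians; both comparisons share the 0.1 nM libraries. DNA replication medians were 1.05 and -0.65, and those of vesicle transport 0.19 and 0.61.

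Single genes stood above or below both vehicle and 10 nM, and those given here were chosen for the size of both changes. TERT, the catalytic subunit of telomerase (chromosome 5, 1253147 to 1295069), was at 2.49, 1.69 and 2.29 CPM with vehicle, 7.08, 5.64 and 7.57 CPM at 0.1 nM and 2.61, 1.85 and 2.67 CPM at 10 nM. Its log2 change was 1.65 (adjusted p = 3.8e-07) against vehicle and -1.52 (adjusted p = 8.58e-07) from 0.1 to 10 nM. THBS1, a secreted glycoprotein that restrains angiogenesis, was at 2.81, 3.53 and 2.82 CPM, 8.78, 10.5 and 8.67 CPM and 3.82, 4.54 and 3.91 CPM in the same order. ORC1, which marks replication origins, was at 16.5, 12.5 and 16.1 CPM, 40.7, 34 and 39.5 CPM and 20.6, 15.1 and 16.1 CPM. CDCA7 and ZPLD1 had the same shape, with log2 changes of 1.22 and 1.08 against vehicle and -1.11 and -1.35 from 0.1 to 10 nM. The 0.1 nM libraries of TERT, THBS1 and ORC1 lay above all libraries of the other groups named, which largely follows from that choice.

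SOX9, a transcription factor of epithelial progenitors (chromosome 17, 72121020 to 72126420), had the opposite shape. It was at 8.09, 13.1 and 10.3 CPM with vehicle, 3.54, 5.95 and 4.72 CPM at 0.1 nM and 18, 20.1 and 21.5 CPM at 10 nM. The cell cycle inhibitor CDKN2B was at 9.15, 8.83 and 9.59 CPM at 10 nM, above its vehicle and 0.1 nM libraries given above. TP53INP2 was at 43.6, 33.2 and 45 CPM with vehicle, 25.3, 22.5 and 24.3 CPM at 0.1 nM and 63, 49.1 and 59.2 CPM at 10 nM. NUCB2 and ZC3H12A had log2 changes of -0.98 and -0.77 against vehicle and of 0.84 and 0.75 from 0.1 to 10 nM. For none of the 10 genes of both shapes did the difference between 0.1 and 0.06 nM pass in the main edgeR fit or with DESeq2. With each, 2 were higher at an unadjusted p under 0.05, a threshold at which all tested genes were not counted. With only the libraries compared and the replicate block, 1 was called higher.

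**Figure D5:**
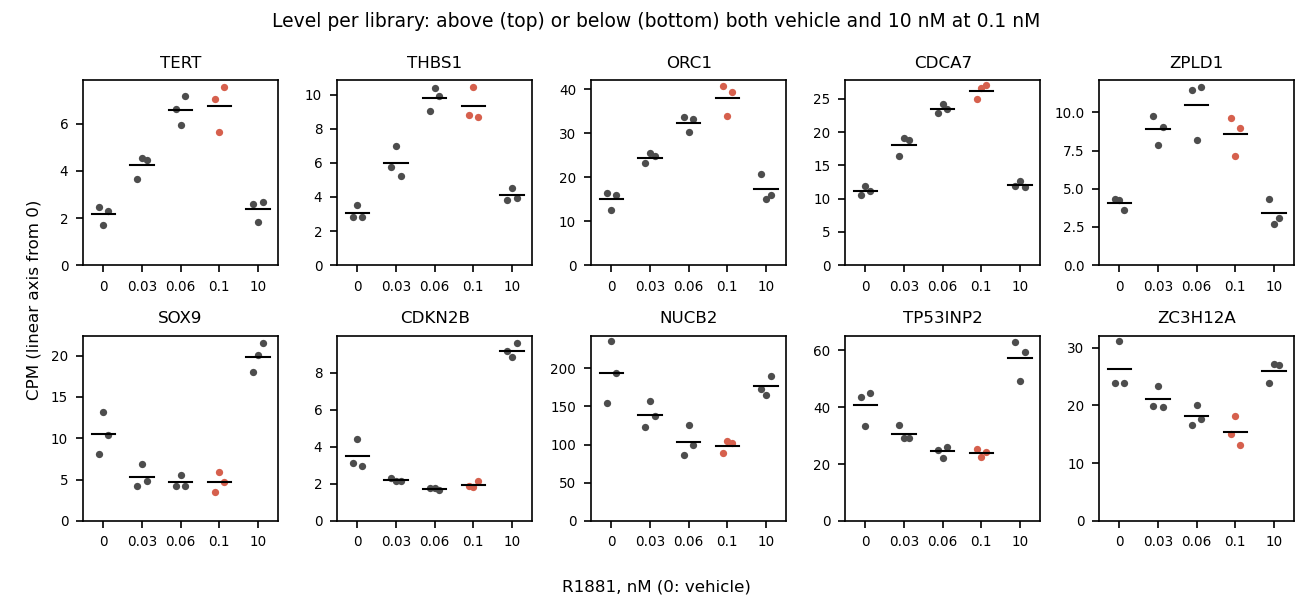
Levels in CPM (linear axes from 0) per library (points) and mean (bar) by dose for 5 genes above (top) and 5 below (bottom) both vehicle and 10 nM at 0.1 nM, with the 0.1 nM libraries in red. TERT was at 7.08, 5.64 and 7.57 CPM at 0.1 nM and 2.61, 1.85 and 2.67 CPM at 10 nM.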

How the data were processed

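Per the labels' protocols, messenger RNA libraries were made with the KAPA Stranded mRNA-Seq kit. Per the submitters' processing notes the authors used Trimmomatic 0.39, STAR 2.7.8a and DESeq2 1.36.0 with GRCh38/hg38. Which program counted reads, with which annotation and strand option, is not given in the sources used here. The deposited LNCaP table holds the authors' raw counts per Ensembl gene for 37843 genes, of which 28455 had a symbol in the name table used. A further 15 per-sample columns, of VCaP cells, matched no label and were not analysed here. Positions and overlaps are those of GENCODE 29 on GRCh38: 259 genes were named by rule, of which 48 share bases with a same-strand gene and 80 with an opposite-strand gene.

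Counts were tested with edgeR 4.0.16 in R 4.3.3 (quasi-likelihood, TMM scaling, filterByExpr by group, 1 mean for each of the 5 groups of 15 libraries, two-sided, Benjamini-Hochberg adjusted p under 0.05 over 18403 genes). The comparisons were 0.1 nM against vehicle, 0.1 against 0.06 nM and 10 against 0.1 nM, which share libraries. CPM are counts over TMM-scaled library totals. Total counts set the precision, 95% intervals for 1 to 3 counts are exact counting intervals, and a group at 0 was set to a floor of 3 counts; both cover counting error only. Vehicle and 0.1 nM libraries of the same number deviated together (correlations of 0.179, 0.287 and 0.151 over 18403 genes), so the numbers pair them. The procedure was tested on simulated data in which few genes changed and same-numbered libraries shared no effect. That simulation cannot judge the choice of scaling or of the replicate block.

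The rule for named genes took the 12 largest rises and the 12 largest falls with a symbol, a call, a mean of at least 5 CPM and no overlap of libraries. To these came the 6 largest each way at 100 CPM, the 3 largest noncoding each way, 5 above and 5 below both neighbours, the 6 largest each way against 0.06 nM, fixed genes (KLK3, FKBP5, TMPRSS2, MYC, CDKN1A, NR3C1, FOXA1, HOXB13, ETV1, ERG) and, of each list, 4 members with the smallest p and those against its majority; not all are described, and some named by the rule are not reported here. The comparison, the lists and the rule were chosen with earlier results of these data known. Alternatives were RLE size factors, library totals alone, no filter, a stricter filter (a mean count of 20 and 1 CPM in 3 libraries), the replicate block, only the libraries compared with and without the block, leaving out the libraries numbered 3 or each library in turn, thinning to the smallest library, and DESeq2 1.42.0.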

Additional observations from a re-analysis of the deposited data

How the results depend on the processing

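For 0.1 nM against vehicle, genes called higher numbered 3145 (library totals alone) to 4662 (only the libraries compared, with the replicate block) against 3958, and genes called lower 3251 (DESeq2) to 4531 (replicate block) against 3787, all within 1.5 times; with each library left out in turn they were 3582 to 3773 and 3181 to 3422. At least 2-fold rises were 591 to 625 and falls 679 to 740 with each library left out. The stricter filter left 443 such rises against 603 and 378 such falls against 711, and DESeq2 gave 634 and 614. For 0.1 against 0.06 nM the higher genes, 197, became 339 without a filter, 594 with the replicate block, 591 with the block and only the libraries compared, 304 without the libraries numbered 3, 305 with DESeq2 and 86 to 165 with each library left out. The lower genes, 54, became 162 without a filter, 305 with the replicate block, 275 with the block and only the libraries compared, 103 without the libraries numbered 3 and 20 to 40 with each library left out. Same-numbered libraries of these doses correlated at 0.134, 0.116 and 0.035, and differently numbered ones at -0.114 to -0.006. For 10 against 0.1 nM the values were 0.153, 0.315 and 0.061, and -0.232 to 0.102 for different numbers. In both comparisons the libraries numbered 4 were the most weakly paired. For 10 against 0.1 nM library totals alone gave 2164 higher and 5994 lower against 3787 and 3589, and leaving out each library 3143 to 3562 and 3069 to 3406. The cause of these shifts was not tested, except that fewer genes enter the stricter filter and fewer libraries the fits without 1. No named gene that was called in the main fit or in the alternative changed direction, and changes of sign in genes called in neither were not counted. The replicate block changed 1 call of a named gene, adding ITGA6 to those called higher, and DESeq2 lost 5 calls and library totals alone 9. Leaving out 1 library lost more calls of named genes: 15, 16 and 14 without 0.1 nM replicate 2, 3 and 4, 12, 7 and 13 without vehicle replicate 2, 3 and 4, and 2, 3 and 4 of 12 without 0.06 nM replicate 2, 3 and 4. With the replicate block 8 DNA replication, 18 mitosis, 3 G1 to S and 3 DNA repair genes were higher at 0.1 than at 0.06 nM and 2 DNA repair genes lower, against none. With the block and only the libraries compared the higher genes were 14, 25, 5 and 7 in the same order, and 2 DNA repair genes were lower. List counts of 1 or 2 for DNA repair, the BCL2 family, the unfolded protein response, vesicle transport, autophagy and basal markers also moved by over 1.5 times when 1 library was left out. Depth limits genes at a few counts: folds of ACADL, SLC2A3, KRT14 and STEAP4 rest on 0 to 3 vehicle counts.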
